A study of Homo sapiens with 4 samples.

Results

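The array labelled LNCaP-AI was compared with the array labelled LNCaP, 1 array a side, which is 2 of the 4 arrays of prostate cancer cell cultures in the study. Every gene was read as an intensity, the brightness of its probe on a linear scale, and differences were taken as log2(intensity + 1). Probes with 1 gene symbol were used, the brightest probe stood for its gene, and a gene entered the comparison when the brighter of its LNCaP and LNCaP-AI values reached the 40th percentile of that array. This left 11135 of 14006 named genes, and 2871 fell below the filter. Each difference was read beside the PC3-H and PC3-L arrays, because the array labelled LNCaP-AI lacked the markers of LNCaP.

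LNCaP is a prostate adenocarcinoma line from a lymph node metastasis that makes prostate-specific antigen and depends on the androgen receptor, a hormone-activated transcription factor. With the pioneer factor FOXA1 and with HOXB13 and GATA2, this receptor maintains secretory luminal genes such as the kallikreins. PC3 is a line from a bone metastasis that grows without androgen, lacks that luminal programme and is known for motile, mesenchymal features. Long culture of LNCaP without androgen is a common way to obtain an androgen-independent derivative.

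The LNCaP culture is labelled androgen-dependent in one field and androgen-independent in another, with low motility and invasion. Its laminin-binding (LB) O-glycan, a sugar chain through which dystroglycan binds laminin, is labelled high in one field and moderate in another. The LNCaP-AI culture is labelled as obtained from LNCaP in RPMI1640 with charcoal-stripped serum, from which steroids have been removed, and another field mentions medium conditioned by human perineural cells. It is labelled low for the glycan and high for motility and invasion. PC3-H and PC3-L are labelled as sorted from PC3 with the glycan antibody IIH6C4, and the fields disagree on which of them is high and which low. The cultures were labelled as kept in RPMI1640 with serum and antibiotics, and none carried a stated transgene or deletion. With 1 array per group no difference below has a replicate check, no p-value was computed, and the precision is limited by the number of arrays. The 4 arrays had medians of 39.8 to 41.2, and the lowest value of the table was 17.6, which makes folds too small where 1 array is dim. Fewer cells with a transcript and less transcript per cell cannot be told apart in RNA from a whole culture.

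The line labels were checked against marker genes. All 6 LNCaP markers with a named probe (KLK3, KLK2, KLK4, FOLH1, SPDEF and HOXB13) were past 2-fold below LNCaP on the array labelled LNCaP-AI, and all 6 lay within 2-fold of at least 1 PC3 array. Of 9 measured PC3 markers, 7 were past 2-fold higher, 6 of these within 2-fold of a PC3 array. The other of the 7 was CXCL8, at 46.9 beside 302 on PC3-H and 497 on PC3-L. The remaining pair, LCN2 and EGFR, was past 2-fold in neither direction. On the array labelled LNCaP-AI, FOLH1 (24.2) and KLK4 (35.3) were near or below its 40th percentile (34.5). A shared low level does not by itself identify a line. On these markers the array labelled LNCaP-AI was unlike the LNCaP array, and it is called the AI-labelled array from here on. Whether it comes from LNCaP cells or from another culture was not tested.

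Upstream sequences of 3 genes are printed as examples of motif matches. KLK3 encodes prostate-specific antigen, the textbook androgen-induced gene. EMP1 encodes a small membrane protein related to EMP3, and read 31.9 on LNCaP, 525 on the array labelled LNCaP-AI, 69.8 on PC3-H and 714 on PC3-L. DSP encodes desmoplakin, the desmosomal plaque protein. The sequences are the 250 bases before the annotated start, from RefSeq on GRCh38.p14, with capitals for the motif of each. In KLK3 the motif is AGAACA, a hexamer of the androgen response element. In EMP1 it is TGANTCA, the site of the AP-1 factors. In DSP it is CACCTG on the other strand, the E-box that the SNAI and ZEB repressors bind. The genes were chosen after these matches were seen, so they do not stand for the higher or lower genes as a whole. CACCTG was also present in the window of AXL, at -106, a gene that was higher on the array labelled LNCaP-AI, so the E-box was not seen in lower genes alone.
KLK3 (chr19:50854665-50854914, plus strand): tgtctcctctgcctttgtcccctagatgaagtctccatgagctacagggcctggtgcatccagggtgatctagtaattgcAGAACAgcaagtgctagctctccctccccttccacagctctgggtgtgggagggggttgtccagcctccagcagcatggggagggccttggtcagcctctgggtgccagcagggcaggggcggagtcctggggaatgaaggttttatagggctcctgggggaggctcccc
EMP1 (chr12:13196476-13196725, plus strand): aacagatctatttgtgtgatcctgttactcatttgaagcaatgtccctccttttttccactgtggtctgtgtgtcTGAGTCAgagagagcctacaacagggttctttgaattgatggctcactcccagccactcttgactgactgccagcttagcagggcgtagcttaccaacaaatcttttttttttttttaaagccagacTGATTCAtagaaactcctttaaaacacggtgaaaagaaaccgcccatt
DSP (chr6:7541421-7541670, plus strand): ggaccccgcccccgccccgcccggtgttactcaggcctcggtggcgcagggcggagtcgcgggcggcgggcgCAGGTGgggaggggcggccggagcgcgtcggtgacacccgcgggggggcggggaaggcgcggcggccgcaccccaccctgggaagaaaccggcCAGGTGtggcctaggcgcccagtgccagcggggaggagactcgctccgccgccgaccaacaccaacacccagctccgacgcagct
The AGAACA match began 170 bases before the start of KLK3 (position -170), the TGANTCA matches of EMP1 at -175 and -48, and the matches of DSP, on the other strand, at -178 and -85. Searched on both strands, AGAACA was present in 12.4% of all 35116 promoter windows of this length, in 8.16% of those of genes past the filter, in 6.51% of the higher and 9.92% of the lower genes. For TGANTCA, which reads the same on both strands, the shares were 6.57%, 4.71%, 5.60% and 4.48%. For CACCTG they were 17.5%, 16.7%, 11.8% and 22.4%. Each share describes letters in the window, not binding, and no difference between shares was tested. In the printed sequences, matches of different motifs did not overlap (0 cases).

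On the AI-labelled array 607 of 11135 genes (5.45%) were past 2-fold higher than on LNCaP and 571 (5.13%) were past 2-fold lower, together 1178 (10.6%). Past 4-fold there were 165 higher (1.48%) and 120 lower (1.08%), and the median over all 11135 genes was 0.005 on the log2 scale. LEPR, at 77.2 on the AI-labelled array and 38.0 on LNCaP, lay just past 2-fold, and SLK, at 406 and 203, just within it. On the lower side RAB11FIP1 (32.6 and 66.1) lay just past 2-fold and HOMER1 (73.9 and 149) just within. At the filter, FYB1 (34.5 and 27.5) was just inside and CTTNBP2 (34.0 and 34.2) just outside.

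**Figure D1:**
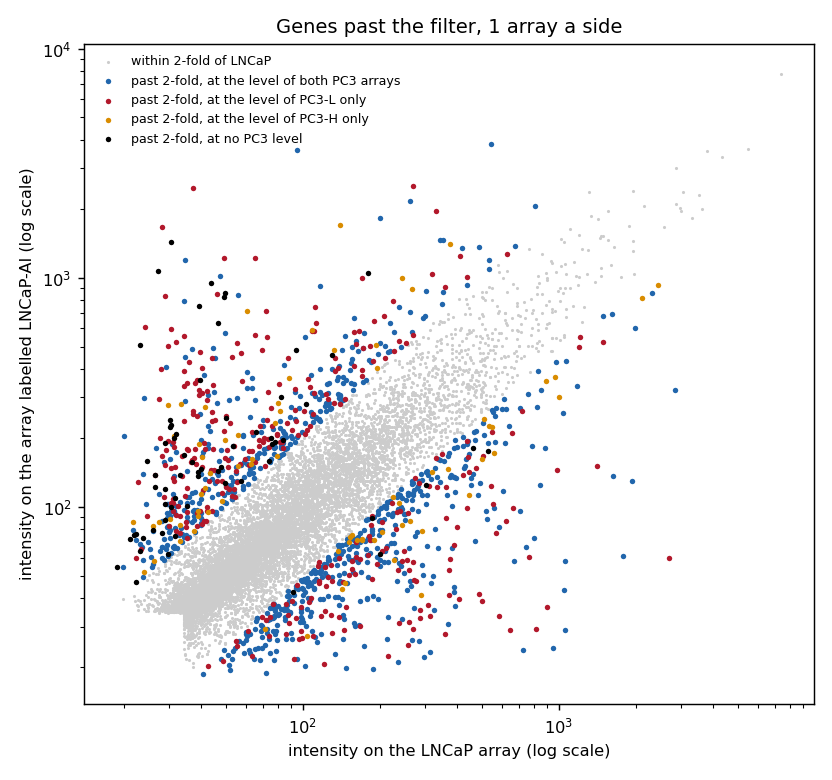
Each point is 1 gene past the filter, with its intensity on the LNCaP array (x axis) and on the array labelled LNCaP-AI (y axis), both on log scales. Colours give the PC3 arrays whose level the second value shares within 2-fold, and of the 607 genes above and the 571 below the grey band, 549 and 565 share the level of at least 1. Over all genes past the filter, 99.2% do.

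Most of these genes read on the AI-labelled array within 2-fold of a PC3 array, as did most genes past the filter. At least 1 PC3 array was within 2-fold for 90.4% of the higher and 98.9% of the lower genes. Over all genes past the filter this share was 99.2%. Of the 607 higher genes, 311 (51.2%) were within 2-fold of both PC3 arrays, 197 (32.5%) of PC3-L only, 41 (6.75%) of PC3-H only and 58 (9.56%) of neither. Among the 571 lower genes these numbers were 404 (70.8%), 128 (22.4%), 33 (5.78%) and 6 (1.05%). Over all genes past the filter, 91.2% were within 2-fold of both, 6.18% of PC3-L only, 1.87% of PC3-H only and 0.781% of neither. A second count was made on genes chosen without the AI-labelled array, with the 40th percentile to be reached on the brighter side. LNCaP was past 2-fold above both PC3 arrays for 242 genes, and for 222 of them the AI-labelled array was within 2-fold of a PC3 array and not of LNCaP. LNCaP was past 2-fold below both for 228 genes, and for 180 of them the same held. The LNCaP level alone was shared by 1 of the 242 and 9 of the 228. The same LNCaP array chose these genes and served in the comparison, so an error on it would favour these counts. They are therefore no independent check.

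Among the 20 highest positive differences were membrane, matrix and protease genes. EMP3, an epithelial membrane protein, read 37.2 on LNCaP and 2473 on the AI-labelled array, with 575 on PC3-H and 1794 on PC3-L, a 64.8-fold difference from LNCaP. MMP1, the interstitial collagenase, read 28.2 on LNCaP and 1664 on the AI-labelled array, beside 27.4 on PC3-H and 3143 on PC3-L. For MMP1 the AI-labelled and PC3-L arrays were thus high, and LNCaP and PC3-H were near the lowest values of the table. CD109, a surface antigen that binds TGF-beta, read 24.3, 608, 147 and 359 on LNCaP, the AI-labelled array, PC3-H and PC3-L. The dimmer probe of CD109 gave a log2 difference of 0.60 from LNCaP, within 2-fold, where the probe used gave 4.59. In the same order MYOF, which encodes the membrane-repair protein myoferlin, read 34.4, 791, 399 and 768. MMP14, a membrane-anchored protease that activates other metalloproteinases, read 23.2, 508, 129 and 216. MMP14 was thus past 2-fold above all 3 other arrays, whereas MYOF was within 2-fold of both PC3 arrays. FMNL2, a formin that elongates actin filaments, read 29.8, 501, 112 and 466, and the secreted protease inhibitor TIMP1 read 46.4, 848, 378 and 998. Of these 20 genes, 4 were within 2-fold of both PC3 arrays, 9 of PC3-L only, 0 of PC3-H only and 7 of neither.

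The 20 largest negative differences held secretory, neural and epithelial genes. GDF15, a secreted member of the TGF-beta family, read 2683 on LNCaP and 59.95 on the AI-labelled array, with 147 on PC3-H and 69.9 on PC3-L, a 44.0-fold difference. FOLH1, prostate-specific membrane antigen, read 944 on LNCaP and 24.2, 23.4 and 23.0 on the other arrays. FOLH1 was thus near the lowest values of the table on 3 arrays and high on 1. MAOA, which oxidises monoamines, read 1047 on LNCaP, 43.1 on the AI-labelled array, 85.9 on PC3-H and 44.4 on PC3-L. MYO6, an actin motor of the secretory pathway, read 1924, 129, 119 and 190 in that order. PRAC1, a small nuclear protein of prostate and distal colon, read 645, 29.1, 189 and 51.1. In PRAC1 the PC3-H array lay between LNCaP and the AI-labelled array, as it did for ADGRG6, EHF, DSP and CLDN7. KDM6A, an X-linked histone H3 lysine 27 demethylase, read 670, 58.1, 76.9 and 81.2, so LNCaP was above 3 arrays that lay within 2-fold of each other. Of these 20 genes, 11 were within 2-fold of both PC3 arrays, 9 of PC3-L only, and 0 of PC3-H only or of neither.

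**Figure D2:**
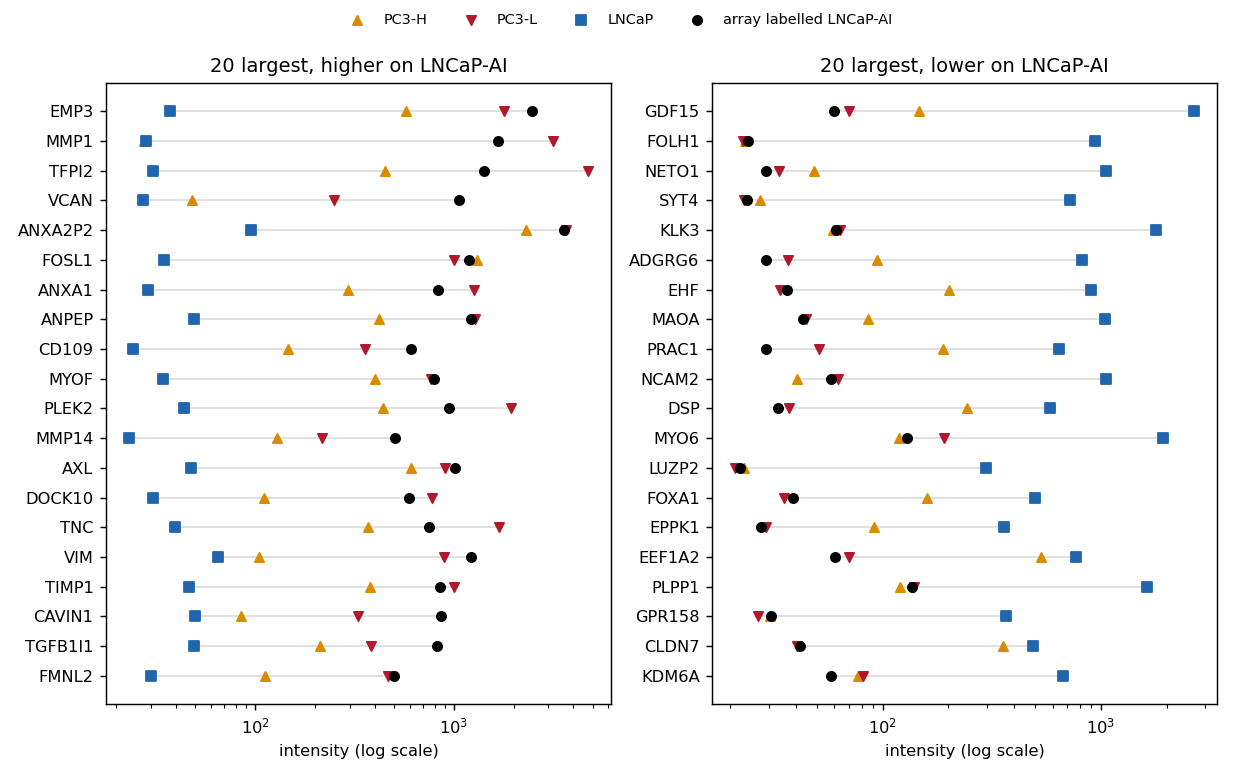
Intensity (log scale) on each of the 4 arrays for the 20 genes with the largest positive (left) and the largest negative (right) log2 difference, 1 point per array. On the left the array labelled LNCaP-AI lies far from LNCaP and mostly near or above PC3-L; on the right GDF15 goes from 2683 on LNCaP to 59.95.

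Factors that work with the androgen receptor were among the lower genes. The receptor itself had no named probe. List counts from here on are to be read beside the shares over all genes past the filter, 5.45% higher and 5.13% lower. Of 6 measured members of the receptor's axis, 0 were past 2-fold higher and 4 lower, with a median log2 difference of -1.74. FOXA1, which opens chromatin for the receptor, read 500 on LNCaP and 38.9 on the AI-labelled array, beside 160 on PC3-H and 35.4 on PC3-L. HOXB13, a prostate homeobox factor, read 407 on LNCaP and 39.5, 110 and 45.1 on the AI-labelled, PC3-H and PC3-L arrays. GATA2, a zinc-finger factor at receptor-bound enhancers, read 229 on LNCaP and 59.4, 74.1 and 59.8 on those arrays. For FOXA1 and HOXB13 the AI-labelled array lay at the PC3-L level and below PC3-H, whereas for GATA2 it was within 2-fold of both. ZBTB16, an androgen-induced repressor, read 98.3 on LNCaP and 32.9 on the AI-labelled array. The coactivators NCOA1 (204 and 164) and NCOA2 (132 and 114) differed by less than 2-fold.

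Of 15 androgen-induced genes past the filter, 9 stood past 2-fold lower, 0 higher, and the median was -1.31. KLK3 read 1781 on LNCaP and 61.2, 59.0 and 63.4 on the AI-labelled, PC3-H and PC3-L arrays, a 28.6-fold difference (log2 -4.84). KLK2, a neighbouring and similar protease whose probes may share signal with KLK3, read 323 on LNCaP and 49.9 on the AI-labelled array. KLK4, an enamel and prostate protease, read 325 and 35.3. All 3 kallikreins were within 2-fold of both PC3 arrays. PLPP1, a lipid phosphatase, read 1623 on LNCaP and 136 on the AI-labelled array, and CENPN, a centromere protein, 382 and 101. STEAP1, a metalloreductase of the prostate cell surface, read 290 and 41.2, with 34.2 on PC3-H and 106 on PC3-L. MET, the hepatocyte growth factor receptor and a gene known to be repressed by the androgen receptor, read 34.8 on LNCaP and 449, 571 and 609 on the other arrays (log2 3.65). None of 6 nuclear receptors past the filter was past 2-fold (0 higher, 0 lower).

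**Figure D3:**
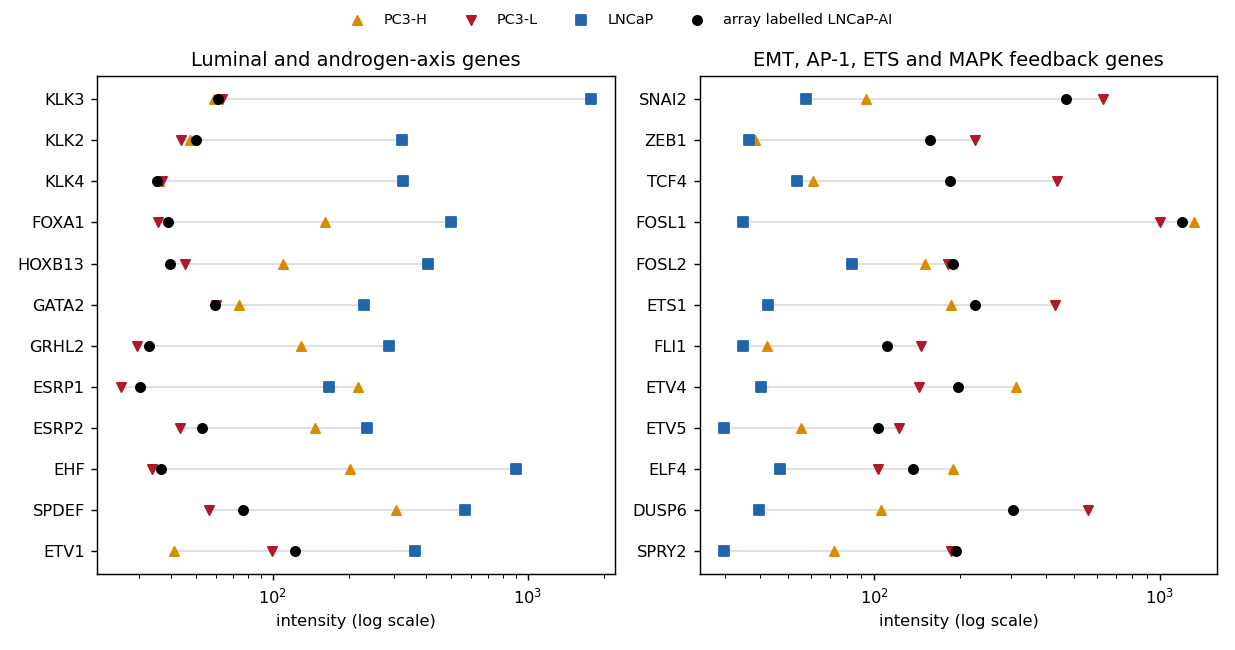
Intensity (log scale) on the 4 arrays, 1 point per array, for luminal and androgen-axis genes (left) and for genes of epithelial-mesenchymal transition, AP-1, ETS and MAPK feedback (right). On the left the array labelled LNCaP-AI lies by PC3-L and to the left of LNCaP in every gene drawn; on the right it lies above LNCaP, as in FOSL1, 1192 against 34.8.

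Among regulators of epithelial identity, GRHL2, ESRP1, ESRP2, SNAI2 and ZEB1 were at the PC3-L level and not at the PC3-H level on the AI-labelled array. Of 16 transition factors past the filter, 3 were higher and 3 lower (median 0.12). GRHL2, a factor that maintains epithelial genes, read 287 on LNCaP, 32.8 on the AI-labelled array, 129 on PC3-H and 29.3 on PC3-L. The splicing regulators of epithelia ESRP1 (167, 30.2, 216 and 25.4) and ESRP2 (235, 52.97, 146 and 43.2) had the same order of groups, LNCaP and PC3-H high and the other pair low. SNAI2, a repressor of E-box genes, read 57.6 on LNCaP, 468 on the AI-labelled array, 93.5 on PC3-H and 634 on PC3-L. ZEB1, another such repressor, read 36.5, 157, 38.2 and 225. For SNAI2 and ZEB1 the AI-labelled and PC3-L arrays were high and the other pair low. TCF4, the E2-2 helix-loop-helix factor, read 53.6, 184, 60.9 and 435, so the AI-labelled array lay between PC3-H and PC3-L. SNAI1 (60.97 on LNCaP, 47.0 on the AI-labelled array), TWIST1 (34.6 and 57.1) and ZEB2 (42.8 and 83.8) were within 2-fold.

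Of 28 junction genes, 11 were past 2-fold lower and 0 higher (median -0.73). DSP, printed above with its E-box matches, read 583 on LNCaP and 33.3 on the AI-labelled array, with 244 on PC3-H and 37.2 on PC3-L. CLDN7, a tight-junction claudin, read 486, 41.6, 355 and 40.3 in the same order, and MARVELD2, the tricellulin of tight junctions where cells meet, 257, 24.8, 58.3 and 29.1. JUP, the plakoglobin of desmosomes and adherens junctions, read 375, 59.4, 320 and 54.9. In these 4 genes the AI-labelled array lay within 2-fold of PC3-L and not of PC3-H. OCLN, the tight-junction protein occludin, did the opposite, with 228, 58.3, 109 and 143. The desmosomal cadherin DSC2 read 581, 82.0, 105 and 70.4. Of 19 luminal secretory genes, 4 were lower and 0 higher (median -0.73): FOLH1, SPDEF, CLDN3 and TSPAN1. Of 21 tetraspanins, 5 were lower (23.8%) and 1 higher (4.76%, near the 5.45% of all genes), with a median of -0.08. TSPAN13 read 439 on LNCaP and 99.1 on the AI-labelled array, and CD151, a partner of laminin-binding integrins, 136 and 356. Of 6 basal keratinocyte genes, 1 was higher, the cytolinker DST, at 40.4 and 403.

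ETS factors, which share a DNA-binding domain, differed in sign from one another. Of 21 past the filter, 7 were higher and 3 lower, with a median of 0.04. The epithelial members EHF (902 on LNCaP, 36.5 on the AI-labelled array, 202 on PC3-H and 33.7 on PC3-L) and SPDEF (566, 76.6, 306 and 56.5) were lower. ETV1, known to be rearranged in LNCaP, read 363, 122, 41.0 and 99.8 and was also lower. ETS1, a factor of mesenchymal and blood cells, read 42.6, 225, 185 and 430. FLI1, which is related to ERG, read 34.7, 111, 42.1 and 146. The PEA3 members ETV4 (40.04, 196, 313 and 144) and ETV5 (29.7, 103, 55.3 and 122), both induced by growth factor signalling, were higher and within 2-fold of both PC3 arrays. ETV1, the remaining PEA3 member, thus had the opposite sign to ETV4 and ETV5.

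Of 12 AP-1 factors, 2 were higher and 1 lower (median -0.01). FOSL1, the FRA1 subunit, read 34.8 on LNCaP and 1192, 1314 and 1002 on the AI-labelled, PC3-H and PC3-L arrays, a 33.4-fold difference. FOSL2, the FRA2 subunit, read 83.7, 189, 150 and 181 on LNCaP, the AI-labelled array, PC3-H and PC3-L, and the stress-induced ATF3 read 92.2, 41.0, 58.6 and 42.3. FOS (62.2 on LNCaP, 57.6 on the AI-labelled array), JUN (199 and 325) and JUNB (124 and 122) were within 2-fold, so the FRA subunits were the members past 2-fold higher.

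Of 18 genes known to follow MAPK signalling, 5 were higher and 2 lower (median 0.38). DUSP6, the phosphatase that switches ERK off, read 39.4 on LNCaP, 306 on the AI-labelled array, 106 on PC3-H and 560 on PC3-L. SPRY2, a feedback inhibitor of receptor kinases, read 29.7, 193, 72.0 and 185, and the early-response gene IER3 read 107, 333, 1589 and 538. MYC, a growth-promoting factor, was lower, at 445, 142, 350 and 234, as was DUSP10, at 99.0, 38.7, 60.9 and 59.3. Genes of this list thus stood on both sides, with DUSP6 and SPRY2 higher and MYC lower. The other 11 were within 2-fold, among them DUSP4 (log2 difference 0.36), DUSP5 (0.40) and SPRY4 (0.89).

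Of 32 receptor kinases past the filter, 4 were higher and 0 lower (median 0.05). AXL, the receptor of GAS6, read 47.4 on LNCaP and 1015, 609 and 900 on the AI-labelled, PC3-H and PC3-L arrays. EPHA2, an ephrin receptor, read 55.4 on LNCaP and 299, 479 and 255 on those arrays. EPHA5, a neural member of that family, read 31.8 on LNCaP and 109, 30.3 and 45.4, so the AI-labelled array stood above all others. MET, given above, was the fourth. Among 7 genes of the ERBB family and its ligands, the ligand EREG (28.2 on LNCaP, 86.7 on the AI-labelled array) was higher and the receptor ERBB3 (188 and 40.6) lower, and EGFR read 356 and 272.

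Of 27 genes of the TGF-beta and BMP family, 8 were higher and 2 lower (median 0.24). The ligand BMP2 read 34.3 on LNCaP, 393 on the AI-labelled array, 44.3 on PC3-H and 648 on PC3-L. ENG, a co-receptor, read 52.8, 452, 151 and 392, and LTBP1, which holds latent TGF-beta in the matrix, 42.4, 321, 92.6 and 195. BMP2, ENG and LTBP1 were within 2-fold of PC3-L and not of PC3-H. The lower members were GDF15 and the decoy receptor BAMBI (159, 31.1, 38.0 and 32.9). Of 28 WNT pathway genes, 4 were higher and 2 lower (median 0.11), and the receptors differed among themselves. FZD8 read 51.4, 291, 341 and 283 and FZD1 65.9, 211, 35.2 and 58.3, whereas FZD6 read 286, 35.6, 197 and 31.6. Of 22 NOTCH pathway genes, 1 was higher, the coactivator MAML2 (29.4, 103, 71.9 and 126), and 0 were lower (median -0.12). The higher share (4.55%) was near the 5.45% of all genes.

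Of 27 cytokine signalling genes, 4 were higher and 1 lower (median 0.13). JAK1, the kinase of interferon and interleukin-6-type receptors, read 41.1 on LNCaP and 376, 304 and 559 on the AI-labelled, PC3-H and PC3-L arrays. OSMR, the oncostatin M receptor, read 40.9 on LNCaP and 174, 200 and 331 on those arrays, and its partner IL31RA 33.7, then 166, 35.6 and 212. IL6R, the binding subunit for interleukin-6, was the lower member, at 149 on LNCaP and 46.3 on the AI-labelled array. The kinase and the oncostatin M receptor were thus low on LNCaP alone, and IL31RA was low on LNCaP and PC3-H.

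**Figure D4:**
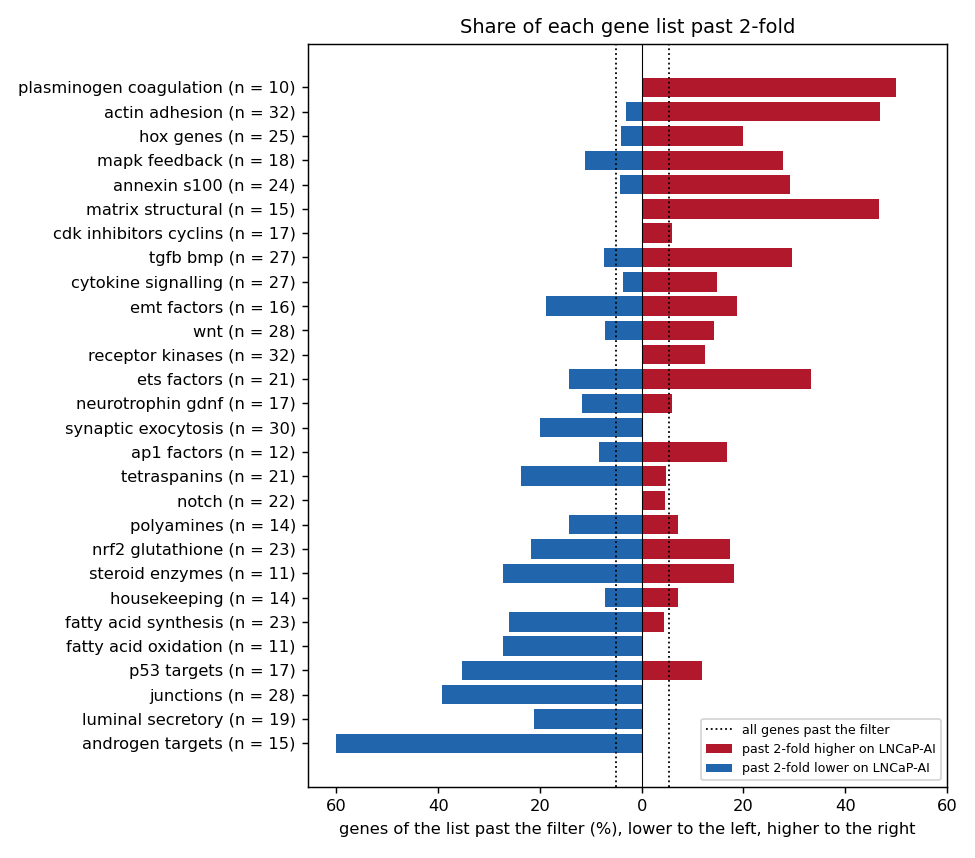
Share of each gene list past the filter that was past 2-fold higher (right, red) or lower (left, blue) than LNCaP on the array labelled LNCaP-AI, in percent, for the reported lists with at least 10 genes past the filter; n is that number of genes. Dotted lines mark the shares over all genes, 5.45% higher and 5.13% lower, and the androgen targets (9 of 15 lower) and the actin and adhesion list (15 of 32 higher) lie near the ends.

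Of 32 genes of the actin cytoskeleton and of cell adhesion, 15 were past 2-fold higher and 1 lower (median 0.82). MSN, which encodes moesin and ties actin to the membrane, read 269 on LNCaP and 2521, 1217 and 2718 on the AI-labelled, PC3-H and PC3-L arrays. CNN2, a calponin, read 201 on LNCaP and 1822, 998 and 1504. TGFB1I1, the focal adhesion protein HIC-5 and an androgen receptor coactivator, read 49.4 on LNCaP and 823, 211 and 385, so the AI-labelled array stood above all others. Focal adhesion genes with smaller differences were ZYX (93.1 on LNCaP, 317 on the AI-labelled array), TLN1 (162 and 531) and PXN (127 and 348). The lower member was LCP1, or plastin 2, at 276 on LNCaP, 47.3 on the AI-labelled array, 379 on PC3-H and 52.6 on PC3-L. DOCK10, an exchange factor for CDC42 and one of the 20 highest positive differences, read 30.5, 597, 111 and 773 in that order.

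Of 24 annexin and S100 genes, which bind calcium and membranes, 7 were higher and 1 lower (median 0.36). ANXA1 read 28.9 on LNCaP, 834 on the AI-labelled array, 294 on PC3-H and 1269 on PC3-L, and S100A16 29.2, 408, 244 and 253. ANXA2P2, a near copy of ANXA2, read 95.0, 3601, 2299 and 3668, while ANXA2 itself read 31.4, 136, 94.8 and 180. Which of this pair gave the signal is uncertain, since their sequences are nearly alike. Of 9 caveola genes, 2 were higher and 0 lower (median 0.30): CAVIN1, a coat protein of caveolae, at 49.7, 861, 84.5 and 328, and EHD2, which sits at their necks, at 72.4, 549, 211 and 351.

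Matrix genes past 2-fold stood on the higher side, 7 of 15 and 0 lower (median 0.31). VCAN, the large proteoglycan versican, read 27.2 on LNCaP, 1067 on the AI-labelled array, 48.0 on PC3-H and 249 on PC3-L. FBN2, a microfibril protein, read 27.9, 401, 189 and 300, and EFEMP2, a fibulin needed for elastic fibres, 44.2, 446, 49.0 and 238. THBS1, the adhesive glycoprotein thrombospondin 1, read 140, 1702, 2427 and 576, with the AI-labelled array at the PC3-H level and not that of PC3-L. TNC, the adhesion-modulating tenascin, read 39.3, 752, 370 and 1692, between PC3-H and PC3-L. Of 10 plasminogen and coagulation genes, 5 were higher and 0 lower (median 0.89). TFPI2, an inhibitor of plasmin and other proteases, read 30.7, 1424, 450 and 4768. PROS1, the anticoagulant protein S, read 38.3, 153, 56.8 and 79.2, and F2R, the thrombin receptor, 83.9, 195, 54.8 and 85.2. No integrin gene had a named probe (0 of 25).

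Lipid and redox enzymes were on both sides. Of 23 fatty acid synthesis genes, 6 were lower and 1 higher (median -0.40). ACACA, which makes malonyl-CoA, read 784 on LNCaP and 185, 171 and 219 on the AI-labelled, PC3-H and PC3-L arrays. FASN, the fatty acid synthase, read 848 on LNCaP and 322, 334 and 393 on those arrays, and the elongase ELOVL5 read 455, then 124, 119 and 169. In ACACA, FASN and ELOVL5 LNCaP was high and the 3 other arrays lay within 2-fold of each other. ACSL4, which activates arachidonic acid, had the opposite sign, at 29.7 on LNCaP and 278, 157 and 605 on the others. Of 11 fatty acid oxidation genes, 3 were lower and 0 higher (median -0.45), among them the carnitine transferase CPT2 (210 on LNCaP, 64.1 on the AI-labelled array).

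Of 14 polyamine genes, 2 were lower and 1 higher (median -0.17). AMD1, which supplies the aminopropyl donor of polyamine synthesis, read 2841 on LNCaP and 323, 400 and 362 on the AI-labelled, PC3-H and PC3-L arrays. SAT1, which acetylates polyamines for export, read 146, then 46.6, 89.0 and 170. Of 23 glutathione and NRF2-linked genes, 4 were higher and 5 lower (median -0.20). GSTP1, a glutathione transferase known to be silenced by promoter methylation in LNCaP, read 117 on LNCaP and 922, 619 and 552 on the AI-labelled, PC3-H and PC3-L arrays. GSR, the glutathione reductase, read 883, then 180, 219 and 350. Of 11 steroid enzymes, 2 were higher and 3 lower (median -0.22), with HSD11B2, which inactivates cortisol, at 264 on LNCaP and 44.9 on the AI-labelled array and HSD17B11 at 93.6 and 327. Of 7 zinc-handling genes, 1 was higher and 2 lower (median -0.65), and the metallothioneins differed in sign, MT2A at 237 and 743 and MT1G at 133 and 22.8. The retinoid list (1 higher, 1 lower of 6) and the galectin and mucin list (0 and 2 of 3) were too short to say more.

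Targets of p53, a factor intact in LNCaP and lost in PC3, were lower for 6 of 17 and higher for 2, with a median of -0.53. Beside GDF15, TP53INP1, an autophagy and stress protein, read 388 on LNCaP and 42.4, 38.8 and 41.2 on the AI-labelled, PC3-H and PC3-L arrays. CCNG1, cyclin G1, read 482 on LNCaP and 112, 127 and 159 on those arrays, and the stress-induced sestrin SESN1 137, then 40.5, 37.3 and 44.5. In TP53INP1, CCNG1 and SESN1 only LNCaP was high among the 4 arrays. The higher members were TP53I3 (62.6 on LNCaP, 153 on the AI-labelled array) and the KIT ligand KITLG (35.2 and 73.3). Of 6 mismatch repair genes, 1 was lower, PMS2 (185 and 71.3). Of 17 cyclins, kinases and their inhibitors, 1 was higher (5.88%, near the 5.45% of all genes), the G1 kinase CDK6 (48.1 and 177), and 0 lower.

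Genes of nerve signalling were examined because the labels mention a perineural cell medium. Of 17 neurotrophin, GDNF and axon-linked genes past the filter, 1 was higher (5.88%) and 2 lower (11.8%), beside 5.45% and 5.13% of all genes. The median was 0.03. NCAM2, a neural adhesion molecule, read 1052 on LNCaP and 57.7, 40.3 and 62.7 on the AI-labelled, PC3-H and PC3-L arrays. The chemokine receptor CXCR4 read 84.9 on LNCaP and 32.9 on the AI-labelled array, and the heparin-binding growth factor MDK 117 and 318. The receptor NGFR (55.5 and 62.7) and the ligand BDNF (37.7 and 47.8) were within 2-fold. Of 30 synaptic and exocytosis genes, 6 were lower and 0 higher (median -0.01). NETO1, an auxiliary subunit of glutamate receptors, read 1059 on LNCaP, 29.1 on the AI-labelled array, 48.5 on PC3-H and 33.5 on PC3-L. SYT4, a vesicle synaptotagmin, read 723, 23.8, 27.4 and 23.1. NCAM2, NETO1 and SYT4 were thus high on LNCaP alone among the 4 arrays. Of 5 cancer-testis genes, 2 were lower, GAGE2A (256 on LNCaP, 43.2 on the AI-labelled array) and GAGE12J (234 and 47.6), near-identical copies whose signals may not be separate.

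Among 25 HOX genes past the filter, 5 were higher and 1 lower (median 0.69), and all 6 lie in the HOXB cluster. Of 39 listed HOX genes 27 had a named probe. HOXA2 (25.5 on LNCaP, 43.6 on the AI-labelled array) was the only HOXA gene among them, so the HOXA cluster was hardly read. HOX genes are homeobox factors, arranged in clusters, that set position along the body axis. HOXB2 read 37.3 on LNCaP, 261 on the AI-labelled array, 50.2 on PC3-H and 198 on PC3-L. HOXB4 read 31.5, 130, 35.3 and 82.2 in that order, and HOXB5 37.6, 164, 65.9 and 115. HOXB3 (log2 difference 1.75) and HOXB6 (1.72) were also past 2-fold higher. HOXB7 (0.96), HOXB8 (0.82) and HOXB9 (0.85) were higher by less than 2-fold, and HOXB1 (-0.06) was dim on all arrays. HOXB13, at the far end of the cluster, had the opposite sign (-3.33). From HOXB2 to HOXB6 the AI-labelled array lay within 2-fold of PC3-L and LNCaP was the lowest array.

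**Figure D5:**
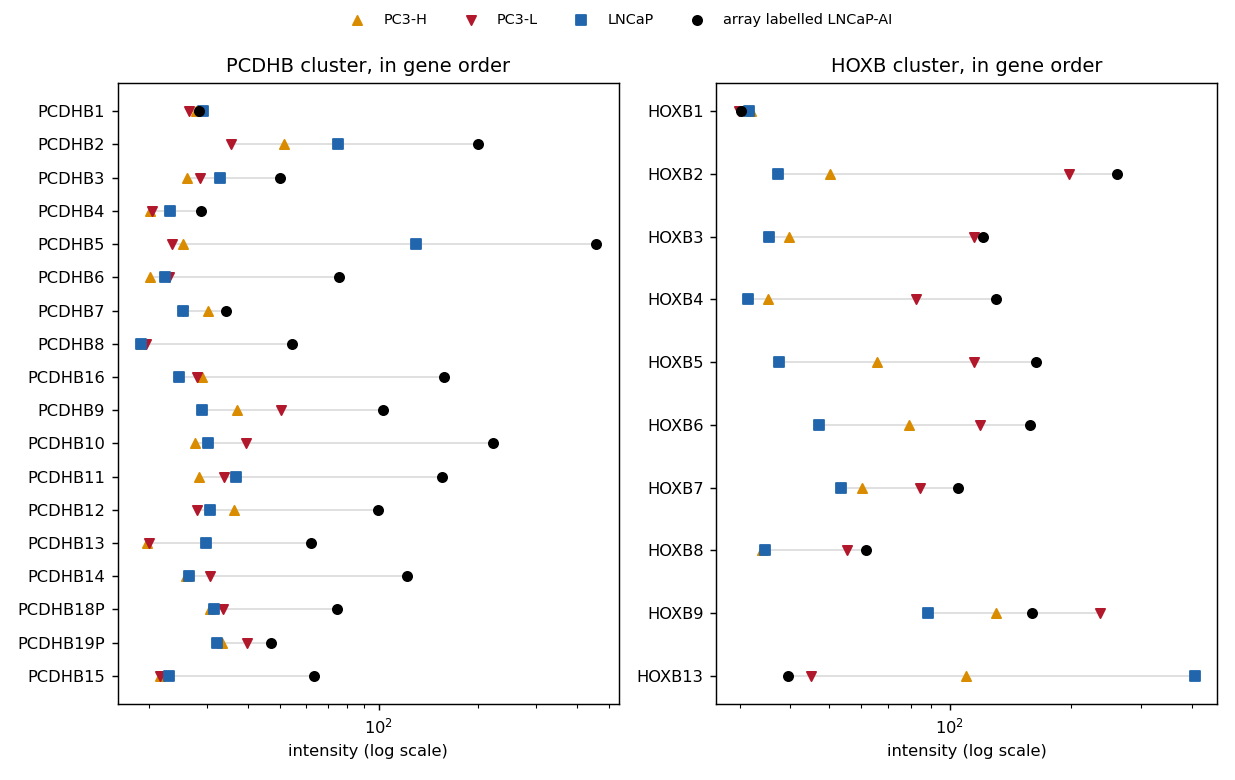
Intensity (log scale) on the 4 arrays, 1 point per array, for the 18 PCDHB genes (left) and the 10 HOXB genes (right) with a named probe, in gene order. The array labelled LNCaP-AI is the highest for 17 of the 18 PCDHB genes, PCDHB1 being the exception, while in the HOXB cluster it lies by PC3-L for most genes.

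The AI-labelled array was past 2-fold above each of the 3 other arrays for 43 genes (0.386%) and below each for 5 (0.0449%). These 48 became 183 with a bound of 1.5-fold and 13 with a bound of 3-fold. Of the 43, 13 belonged to the protocadherin beta (PCDHB) cluster, a number that was 6 at 3-fold. Clustered protocadherins are cadherin-like proteins of the cell surface, best known in neurons, where each cell switches on a subset of the promoters. Of 18 members with a named probe, 2 of them pseudogenes, 15 passed the filter, 13 were past 2-fold higher than LNCaP and 0 lower. The median log2 difference over the 15 was 1.67, between 0.53 and 2.84. Over the 18 members, intensities on the AI-labelled array ran from 28.5 through a median of 75.4 to 458. On LNCaP they ran from 18.9 through 29.5 to 130, on PC3-H from 19.0 through 27.7 to 51.6, and on PC3-L from 19.7 through 28.0 to 50.5. PCDHB10 read 222 on the AI-labelled array and 30.2, 27.6 and 39.4 on LNCaP, PC3-H and PC3-L. PCDHB16 read 158, then 24.7, 29.1 and 28.0. For PCDHB10 and PCDHB16 the 3 other arrays lay together and low. PCDHB5 read 458, then 130, 25.5 and 23.5, and was thus also above both PC3 arrays on LNCaP. PCDHB members are alike in sequence, so 1 transcript may raise several probes, and their number is not a number of independent genes. Of 7 protocadherins outside this cluster that passed the filter, 1 was past 2-fold higher, PCDH7.

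The upstream windows of 14 PCDHB genes were compared because 13 of the 15 PCDHB members past the filter were past 2-fold higher. A run of 10 bases, GGTGGCGCTG (CAGCGCCACC on the other strand), occurred in 11 of the 14, starting 16 to 84 bases before the start. The run was found in these windows and is therefore no test of them. It occurred in 0.225% of all 35116 promoter windows, in 0.356% of those of genes past the filter, in 1.17% of the higher and 0.320% of the lower genes, PCDHB members included. The run is in capitals, with up to 10 bases on each side, from RefSeq on GRCh38.p14.
PCDHB2 (chr5:141094545-141094574, plus strand): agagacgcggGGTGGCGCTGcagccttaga
PCDHB3 (chr5:141100394-141100423, plus strand): gcgaacgcatGGTGGCGCTGttgactaaga
PCDHB4 (chr5:141121724-141121753, plus strand): caagacgcagGGTGGCGCTGcaggctaagt
PCDHB5 (chr5:141135180-141135205, plus strand): taggacgcctGGTGGCGCTGcaggct
PCDHB7 (chr5:141172567-141172596, plus strand): caaaacgcaaGGTGGCGCTGctggctaaaa
PCDHB16 (chr5:141182311-141182340, plus strand): gagaacgcgtGGTGGCGCTGcaggttaaga
PCDHB9 (chr5:141187075-141187104, plus strand): gaagccacaaGGTGGCGCTGcagactgaag
PCDHB10 (chr5:141192300-141192329, plus strand): gaggccacacGGTGGCGCTGcaggctaaag
PCDHB12 (chr5:141208644-141208673, plus strand): ggagacgcgtGGTGGCGCTGcaggataata
PCDHB13 (chr5:141213866-141213895, plus strand): gaggacgcgtGGTGGCGCTGcaggataaga
PCDHB15 (chr5:141245315-141245344, plus strand): gacaacgcatGGTGGCGCTGcaggctaagg
PCDHB1, PCDHB8 and PCDHB14 did not hold these letters in the window. PCDHB1 was dim on all arrays (26.5 to 29.3), but PCDHB8 (54.4 on the AI-labelled array, 18.9 on LNCaP) and PCDHB14 (122 and 26.6) were past 2-fold higher. PCDHB3 (50.2 and 32.97), PCDHB4 (28.9 and 23.3) and PCDHB7 (34.4 and 25.4) held the run and were past 2-fold on neither side. The presence of the run and the difference in level therefore did not match gene by gene.

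The other 30 genes above all arrays included matrix and surface proteins. SERTAD4, a nuclear protein with a SERTA domain, read 228 on the AI-labelled array and 30.7, 52.6 and 50.5 on LNCaP, PC3-H and PC3-L. SIRPB1, a receptor of the signal-regulatory family, read 358, then 39.7, 100 and 60.3, and SIRPD of the same family and chromosome (20) read 119, then 29.0, 31.6 and 35.9. MGP, the matrix Gla protein that inhibits calcification, read 75.2, then 21.9, 24.1 and 20.1. SIRPD and MGP were dim on all 3 other arrays, and SERTAD4 on LNCaP. VCAN, CAVIN1, MMP14 and TGFB1I1, given above, were also members, but each was higher on both PC3 arrays than on LNCaP.

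The 5 genes below all arrays were ADK, PPA1, SEC23B, GCH1 and RPS24. ADK, adenosine kinase, read 125 on the AI-labelled array and 302, 962 and 278 on LNCaP, PC3-H and PC3-L. PPA1, a pyrophosphatase, read 180, then 461, 444 and 374, and SEC23B, a coat protein of secretory vesicles, 175, then 530, 408 and 366. GCH1, the first enzyme of tetrahydrobiopterin synthesis, read 42.3, then 91.5, 113 and 131. RPS24, a ribosomal protein with many near copies and therefore uncertain, read 89.0, then 186, 223 and 181. With a pseudocount of 16 the differences of GCH1 (-0.88) and RPS24 (-0.94) from LNCaP were within 2-fold. ADK, PPA1 and RPS24 lie on chromosome 10. Over the 44 genes past the filter from PPA1 to RPS24 the median log2 difference was -0.16 from LNCaP, -0.16 from PC3-L and -0.30 from PC3-H. Of the 44, 30 were below LNCaP, beside 5499 of all 11135 genes. PPA1 and RPS24 set the ends of this stretch and are counted in it, so it is no test of the region.

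For 10 of the 14006 named genes the AI-labelled array shared the LNCaP level while both PC3 arrays lay past 2-fold away on one side. The 10 became 5 with a pseudocount of 16, 43 with a bound of 1.5-fold and 2 with a bound of 3-fold. Here a gene needed to reach the 40th percentile on any of the 4 arrays, so CLDN1 counts although it was below the filter on LNCaP and the AI-labelled array. Above PC3 there was 1, ABHD4, a lipase of N-acyl phospholipids, at 182 on LNCaP and 152 on the AI-labelled array with 64.9 on PC3-H and 70.0 on PC3-L. Below PC3 there were 9. LIF, a cytokine of the interleukin-6 family, read 42.0 on LNCaP and 35.9 on the AI-labelled array, beside 241 (PC3-H) and 214 (PC3-L). PTGS2, the inducible cyclooxygenase, read 28.5, 38.2, 266 and 83.0 in that order, CLDN1, a tight-junction claudin, 28.1, 28.3, 67.5 and 91.2, and ANXA3 25.1, 37.7, 218 and 107. For LIF, PTGS2, CLDN1 and ANXA3 both PC3 arrays were higher and the LNCaP and AI-labelled arrays low. These low values lay near or below the 40th percentiles of LNCaP (34.2) and the AI-labelled array (34.5). A shared level there does not by itself identify a line. ERO1A, which oxidises the disulphide isomerase of the endoplasmic reticulum, read 203, 217, 718 and 452.

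In some genes the AI-labelled array had the level of PC3-H and lay past 2-fold from both LNCaP and PC3-L. Leaving out small RNAs, uncharacterised reading frames, LOC, LINC and Y-linked genes, 17 were higher than both and 30 lower than both. Of all 11135 genes past the filter, 208 (1.87%) were within 2-fold of PC3-H and not of PC3-L. THBS1 was among the higher genes, as were SLIT2, a guidance ligand, at 281 on the AI-labelled array with 33.5, 241 and 111 on LNCaP, PC3-H and PC3-L, and IGFBP4, which binds insulin-like growth factors, at 715 with 60.7, 598 and 294. The lower genes included enzymes of amino acid synthesis. PSAT1, of the serine pathway, read 300 on the AI-labelled array with 996, 261 and 1185 on LNCaP, PC3-H and PC3-L. ASNS, asparagine synthetase, read 82.9 with 244, 95.4 and 431. DDIT4, a stress-induced inhibitor of mTOR signalling, read 171 with 556, 213 and 500. For PSAT1, ASNS and DDIT4 the LNCaP and PC3-L arrays were high and the other pair low.

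At no PC3 level, but not beyond all arrays, lay 15 higher genes and 1 lower gene, TXNIP (62.1 on the AI-labelled array, 201 on LNCaP). The genes named here were chosen after their values were seen. Most lay between PC3-H and PC3-L, as TFPI2, TNC and TCF4 did. EPAS1, the hypoxia-inducible factor 2 alpha, read 142 on the AI-labelled array and 38.9, 442 and 512 on LNCaP, PC3-H and PC3-L, between LNCaP and both PC3 arrays. CXCL8, interleukin-8, read 46.9, then 22.3, 302 and 497, and was thus 6.34-fold below PC3-H and 10.4-fold below PC3-L.

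Marker lists of other cell types were read for RNA of other cells. Among 6 perineurial and Schwann cell markers past the filter, 0 were past 2-fold higher and 1 lower (ERBB3). SOX10, a factor of Schwann cells, read 60.8 on the AI-labelled array and 54.2 to 60.4 on the others, and S100B 38.1 and 27.5 to 33.1. CLDN1, on the same list but below the filter, read 28.3 on the AI-labelled array and 28.1 on LNCaP. It read 67.5 on PC3-H and 91.2 on PC3-L. No fibroblast marker was past 2-fold (0 of 1), nor was an endothelial one (0 of 5). Of 8 listed fibroblast markers 2 had a named probe and 1 passed the filter, so fibroblast RNA could hardly be read. LUM, a fibroblast marker, read 20.02 on the AI-labelled array, near the lowest values of the table. Of the leukocyte markers 1 of 2 past the filter was higher, the lysosomal CD68, at 553 with 290 (PC3-H) and 630 (PC3-L), and CD14 read 31.3. The 1 erythroid marker with a probe was below the filter. Of 14 housekeeping genes, 1 was higher (B2M, 344 against 158 on LNCaP) and 1 lower (GPI, 857 against 2317), with a median of -0.37. Each was 7.14% of the list, near the shares over all genes, 5.45% and 5.13%.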

How the data were processed

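RNA of 4 cultures, 1 Affymetrix array each, was extracted with ISOGEN II and labelled with the WT Terminal Labeling Kit, per the labels' protocols. The authors deposited linear intensity values (17.6 to 11188). GeneSpring GX 12.6 is named in the design text. The probe summary, background correction, array normalization and genome build are not given in the sources used here. The 40th percentiles of the arrays were 33.6 to 34.8.

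Of 37934 probes, 14952 had exactly 1 gene symbol in the platform annotation, and the other 22982 were left out. The 14952 gave 14006 genes, 583 with several probes. All 14952 matched the RefSeq gene table by Entrez identifier. Differences of log2(intensity + 1) were computed with pandas 2.3.3 and NumPy 2.4.6 in Python 3.11.15, and the counting steps were tested on simulated data. A level was shared when 2 arrays were within 2-fold. The study's false discovery rate was not applied, since 1 array a side allows no test. Levels of different probes were not compared.

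The gene lists and the genes compared were chosen with earlier results of these data known. Named genes were, per direction, the 20 largest differences, leaving out small RNAs, uncharacterised reading frames, LOC and LINC genes and Y-linked genes; up to 12 genes apart from all other arrays or at the LNCaP level; 8 at the PC3-H level alone; the 5 most opposite in both pairs of arrays; and up to 8 members past 2-fold per list, with every member of the short regulator and marker lists. Genes of the lists without a named probe are not analysed here, and 1 list is not reported here. Alternatives were a pseudocount of 16, no filter, the 60th percentile, median centring, quantile and loess normalization, other probes, bounds of 1.5-fold and 3-fold, each PC3 array in place of the LNCaP-AI array, and all probes.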

Additional observations from a re-analysis of the deposited data

Results flagged for a closer look

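In 45 genes the difference in this pair and the difference of PC3-L from PC3-H had opposite signs, each past 2-fold. Whether they differ was not tested, since each array stands alone. THBS1 had a log2 difference of 3.59 here and -2.07 in PC3-L against PC3-H, and LPAR1, a receptor of lysophosphatidic acid, 2.02 and -2.11. PSAT1 had -1.73 and 2.18, LONRF1 -1.68 and 1.76, and STEAP1 -2.79 and 1.60. These were the 5 with the largest smaller difference among the 45 genes, 12 of them higher and 33 lower here. The 45 leave out small RNAs, uncharacterised reading frames, LOC and LINC genes and Y-linked genes. The pairs share no array.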

How the results depend on the processing

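No paired analysis was possible because each group had 1 array. Counts of higher (607) and lower (571) genes stayed within 1.5 times, at 483 to 633 and 423 to 577, under the alternatives of pseudocount, filter, normalization and probe on named genes. Over all 24522 probes past the filter, named or not, they were 1080 and 1157. With PC3-L in place of the LNCaP-AI array the counts against LNCaP were 805 and 502, with PC3-H 501 and 609. Genes at a PC3 level (1114) ranged from 860 to 1159. Genes that shared the LNCaP level and not that of PC3 (10) were 5 with a pseudocount of 16, 43 with a bound of 1.5-fold and 2 with 3-fold. Genes apart from all arrays (48) were 183 and 13 under these bounds, and PCDHB members among them (13) were 6 at 3-fold. Of 84 named genes, GCH1 (-0.88) and RPS24 (-0.94) were within 2-fold with a pseudocount of 16, as were CD109 (0.60) and GPR158 (-0.01) with the dimmest probe, and 0 changed sign past 2-fold. Of 98 list counts, 8 moved by over 1.5 times with the pseudocount of 16, 2 with the probe mean and 2 with the dimmest probe. Why these moved was not tested.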

Other observations

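Long genes held more of the differences. Genes were split by genomic length into 5 groups of like size. Of the 2227 genes in the longest group (median 137913 bases), 233 were past 2-fold higher and 153 lower, beside 91 and 72 of the 2228 in the shortest group. Median log2 differences over the 5 groups lay between -0.04 and 0.03.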
